A study of Zea mays with 45 samples.

Results

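The 5 genes described here encode enzymes that build and trim starch: *GBSSIIa*, *ss1*, *sbe1*, *iso2* and *zpu1*. They were found by gene symbol or synonym in the annotation of an Affymetrix maize array, for *sbe1* by its gene identifier LOC542315. They are 5 of the 1108 genes the annotation names, and each had 1 of the 17555 probe sets tested. The identifiers of the others are LOC100125638 for *GBSSIIa*, LOC541669 for *ss1*, LOC542679 for *iso2* and LOC541711 for *zpu1*. Because each probe set binds its target with its own strength, levels were compared between zones and times of 1 gene and not between genes.

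Leaves of maize genotype SL (KWS Einbeck), grown under 14 h light and 10 h dark, were sampled when the light period ended (called dusk here), when the normal night ended (dawn), and after the darkness had been prolonged past dawn by 6, 14 or 24 h. All plants shared this genotype and growth regime. The groups differed in leaf zone, in the length of darkness before harvest and in the clock hour of harvest. The plants had then been in the dark for 16, 24 and 34 h in all, and harvest at 14 h fell on the clock hour of dusk and harvest at 24 h on that of dawn. At each time 3 zones were taken: the division zone (0 to 1.5 cm above the ligule), the elongation zone (3 to 4.5 cm) and the mature zone further up. Of the resulting 15 groups, 12 had 3 arrays; those with 2 were the dusk groups of the elongation and mature zones and the 6 h group of the mature zone. Each array holds RNA of a pool of 5 plants, so every SD, SE and p-value refers to differences among such pools, and precision is set by how many arrays a group has.

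Starch is a granule of glucose chains made in plastids. Starch synthases lengthen the chains, branching enzymes cut and rejoin them to create branch points, and debranching enzymes remove misplaced branches so that the polymer can crystallise, or open branches when the granule is broken down. In maize leaves starch is made in the light, mainly in the chloroplasts of the bundle sheath, and used in the following night as a source of carbon. A night prolonged beyond its normal length removes the light in which this reserve is refilled.

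Among the 5 genes, *GBSSIIa* encodes a granule-bound starch synthase, the type that makes amylose inside the granule; it is the counterpart in leaves and other non-storage tissues of the *waxy* enzyme of the endosperm. *ss1* encodes soluble starch synthase I, which extends short chains of amylopectin. *sbe1* encodes starch branching enzyme I. *iso2* encodes an isoamylase-type subunit that is thought to have no catalytic activity of its own and to act in a complex with isoamylase 1. *zpu1* encodes the pullulanase-type debranching enzyme, which in maize takes part in both starch synthesis and starch breakdown.

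The arrays grouped as labelled. The correlation between arrays of a group ran from 0.963 to 0.998. For 42 of 42 arrays the most highly correlated other array belonged to the same group. Markers were picked by name with earlier results of these data known, so they are not an independent check of the zone labels. From the base upward the replication gene *pcna1* averaged 10.88, 9.30 and 8.12, and *tub4*, a tubulin gene on the elongation list, 9.55, 11.83 and 7.91. The C4 genes *pep1* and *me3* averaged 14.08 and 13.80 in the mature zone against at most 7.52 below it. On the division-zone list *cdc2*, *cyc1* and *cyc3* also stepped down in that order, but *his1* averaged 10.78, 10.82 and 9.91. The meristem genes *kn1* and *lg3* never exceeded the dim level of 6.19, the 95th percentile of 66 probe sets for reporter genes with no maize target. In the dawn group of the mature zone, replicate 3 lay away from replicates 1 and 2 (-92.8 against -140.8 and -143.1 on the first principal component, with *pcna1* at 9.68 against 7.03 and 7.52). The mean of the division-zone marker list ran from 7.24 to 8.64 in that group and from 6.91 to 7.80 in the other mature groups. What set replicate 3 apart, and its part in the results, was not tested. Results that this array decides are given without it. Noise was uneven too: array weights, which are low for noisy arrays, had medians of 1.56, 1.3 and 0.528 in the same order, whereas the SE given here is shared by all zones.

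All 5 genes were read above the dim level on every array of all 15 groups, and all 5 differed between zones and over time. The 15 group means spanned 4.04 log2 units for *GBSSIIa*, 3.05 for *iso2*, 2.99 for *ss1*, 2.51 for *zpu1* and 1.78 for *sbe1*. The courses were not alike: in the mature zone *GBSSIIa* passed through a maximum in the first hours of the prolonged night, *ss1* and *iso2* ended below their dawn level by more than 2 log2 units, and *sbe1* and *zpu1* ended above it. Over the 5 times a gene's means spanned 0.36 to 1.12 in the growth zones and 1.17 to 3.86 in the mature zone. A difference is called below where its adjusted p, over all probe sets, was under 0.05; *zpu1* had such a change in 1 of its 12 growth-zone comparisons. In whole tissue, fewer cells of a type and less RNA per cell cannot be told apart.

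**Figure D1:**
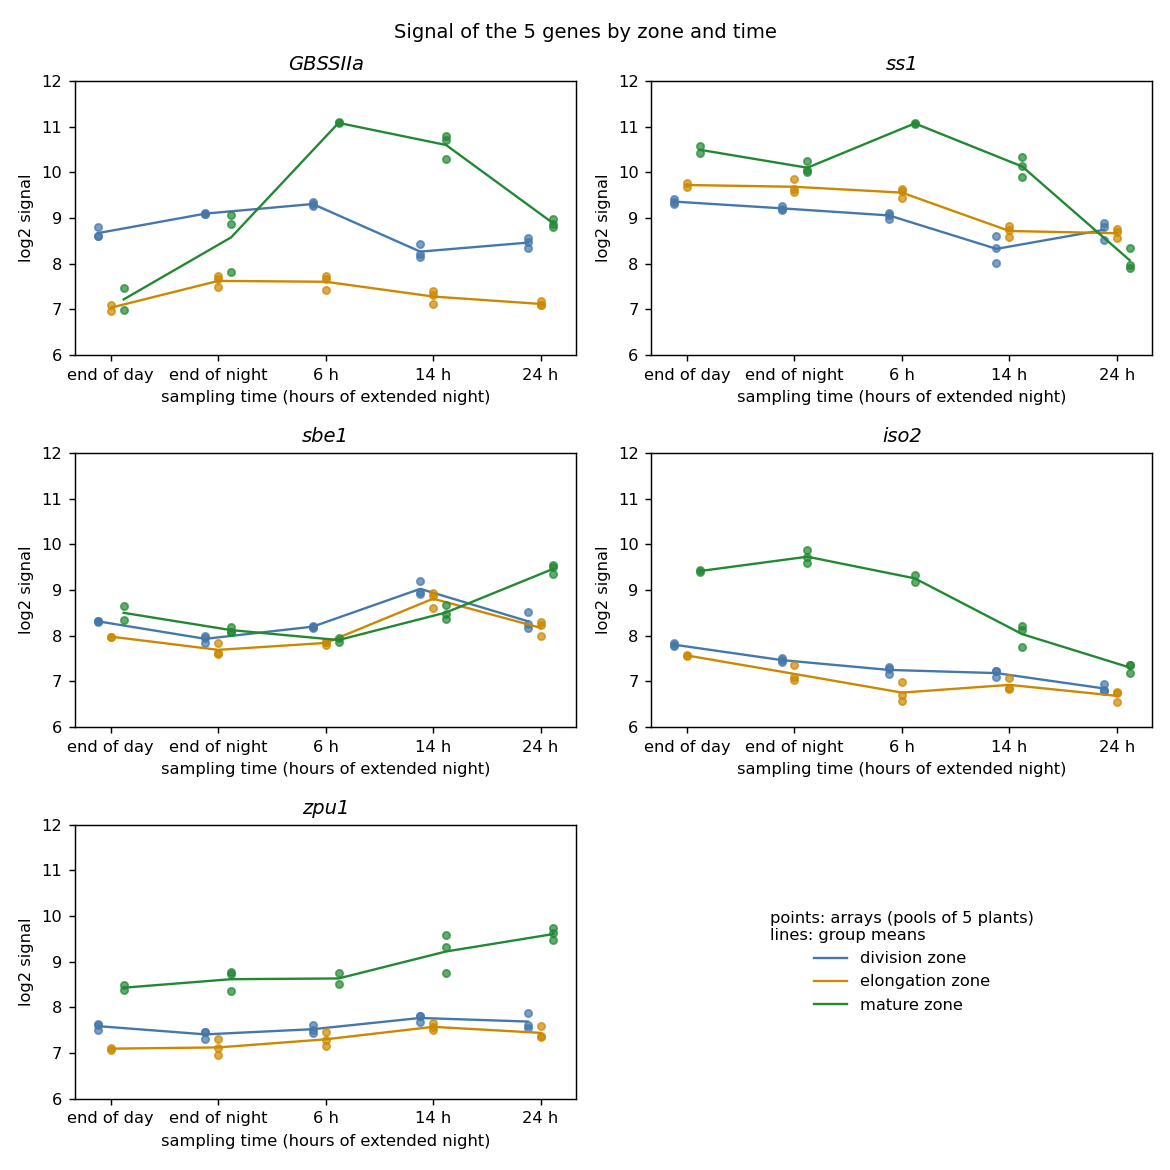
Log2 signal of each gene (vertical axis) at the 5 sampling times (horizontal axis: end of day, end of night, then hours of extended night) for each leaf zone, with 1 point per array and a line through the group means. *GBSSIIa* in the mature zone peaks at 11.08 at 6 h, while *sbe1* and *zpu1* are highest there at 24 h, at 9.46 and 9.61.

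In a variance split with zone entered first, the zone of the leaf carried 83.5% of the variance of *zpu1*, 58.3% of that of *iso2* and 50.7% of that of *GBSSIIa*. Time carried most of the variance of *sbe1* (52.0%) and the greatest share of that of *ss1* (46.0%). The part in which the time course itself differed between zones was 28.9% for *GBSSIIa*, 28.2% for *ss1* and 30.5% for *sbe1*, but 13.9% for *iso2* and 4.40% for *zpu1*. The spread within groups was 1.24 to 4.29% of the variance in each gene.

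*GBSSIIa*, the amylose-making synthase, had the widest range. In the mature zone its log2 signal was 6.98 and 7.46 at dusk, 7.81, 8.86 and 9.06 at dawn, 11.09 and 11.07 at 6 h, 10.80, 10.29 and 10.72 at 14 h, and 8.98, 8.80 and 8.87 at 24 h. Every array at 6 and 14 h was above every array at the other times, and the spread was widest at dawn (SD 0.67, n = 3), where replicate 1 was the low one. The signal rose by 1.36 ± 0.20 (SE) over the normal night (limma, adjusted p = 1.6e-06), by a further 2.51 ± 0.20 to 6 h (adjusted p = 1.3e-11), and fell by 1.72 ± 0.18 between 14 and 24 h (adjusted p = 6.3e-09). Against dusk, 14 h was 3.38 ± 0.20 higher, a 10.4-fold difference in signal (adjusted p = 1.3e-15), which 94 of the 17555 probe sets exceeded in the same direction. From 6 to 14 h the difference was -0.48 ± 0.20 (adjusted p = 0.059). At 24 h the difference from dawn was 0.30 ± 0.18 (95% interval -0.06 to 0.67, adjusted p = 0.15), with overlapping ranges.

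The dawn arrays decide that last comparison of *GBSSIIa*. Without replicate 3, the array that stood apart, 24 h was 0.55 higher than dawn (adjusted p = 0.0092), and without replicate 1 it was -0.08 from it (adjusted p = 0.64). The rise over the night was 1.12 without replicate 3 and 1.74 without replicate 1, and the rise to 6 h was 2.75 and 2.12, with each of these called. A fit on the 2 groups alone, which takes the spread from 5 arrays, gave an adjusted p of 0.084 for the rise over the night.

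In the division zone *GBSSIIa* read lowest at 14 and 24 h, and in the elongation zone its means stayed within 0.59 log2 units. The division zone read 8.81, 8.60 and 8.60 at dusk, 9.10, 9.10 and 9.09 at dawn, 9.36, 9.30 and 9.27 at 6 h, 8.44, 8.15 and 8.21 at 14 h, and 8.48, 8.35 and 8.56 at 24 h. All arrays at 6 h lay above all arrays at the other times, and those at 14 and 24 h lay below all others. The signal fell by 1.04 ± 0.18 between 6 and 14 h (adjusted p = 2.6e-05) and was lower at 24 h than at dawn (-0.64 ± 0.18, adjusted p = 0.0064). The elongation zone read 6.97 and 7.11 at dusk, 7.49, 7.66 and 7.73 at dawn, 7.73, 7.67 and 7.42 at 6 h, 7.13, 7.41 and 7.31 at 14 h, and 7.18, 7.09 and 7.09 at 24 h. There the difference at 24 h from dawn was called (-0.50 ± 0.18, adjusted p = 0.023). That call was lost without replicate 2 or 3 of either group, where the adjusted p was 0.058 to 0.078.

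*ss1*, the soluble synthase of short chains, was highest in the mature zone at 6 h and lowest there at 24 h. Its mature-zone signal was 10.42 and 10.58 at dusk, 10.02, 10.05 and 10.24 at dawn, 11.08 and 11.06 at 6 h, 9.90, 10.34 and 10.15 at 14 h, and 8.35, 7.98 and 7.91 at 24 h. The 2 arrays at 6 h were above and the 3 at 24 h below all others of the zone. From dawn *ss1* rose by 0.97 ± 0.14 to 6 h (adjusted p = 9.7e-07), then fell by 0.94 ± 0.14 to 14 h (adjusted p = 1.5e-06) and by 2.05 ± 0.12 from 14 to 24 h (adjusted p = 3.4e-14). Its difference at 24 h from dawn was -2.02 ± 0.12 (adjusted p = 1.8e-15), a 4.07-fold difference in signal. The 2 smaller called differences, -0.39 ± 0.14 over the night (adjusted p = 0.022) and -0.37 ± 0.14 at 14 h against dusk (adjusted p = 0.022), were both lost without replicate 2 of dusk, at adjusted p = 0.18 each. The first was also lost without replicate 1 or 2 of dawn (adjusted p = 0.068 and 0.059) and the second without replicate 1 at 14 h (adjusted p = 0.14). Among fits with other settings 2 lost the first and 4 the second, which had an adjusted p of 0.11 in limma with array weights.

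In both growth zones *ss1* had no called change up to 6 h and was lower at 14 h. The elongation zone read 9.68 and 9.77 at dusk, 9.63, 9.57 and 9.86 at dawn, 9.59, 9.64 and 9.44 at 6 h, 8.73, 8.59 and 8.83 at 14 h, and 8.75, 8.56 and 8.69 at 24 h. The arrays fall into a high set up to 6 h and a low set after it, with no overlap. *ss1* fell there by 0.84 ± 0.12 between 6 and 14 h (adjusted p = 2.3e-06) and stood at -1.02 ± 0.12 at 24 h against dawn (adjusted p = 4.8e-08). The division zone read 9.30, 9.42 and 9.36 at dusk, 9.19, 9.27 and 9.18 at dawn, 8.99, 9.07 and 9.12 at 6 h, 8.61, 8.02 and 8.35 at 14 h, and 8.81, 8.53 and 8.90 at 24 h. It fell by 0.73 ± 0.12 between 6 and 14 h (adjusted p = 1.9e-05). The rise of 0.42 ± 0.12 that followed to 24 h (adjusted p = 0.011) shrank to 0.26 without replicate 2 at 14 h (adjusted p = 0.17), and was lost without replicate 1 or 3 at 24 h too (adjusted p = 0.051 and 0.078).

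*sbe1*, the branching enzyme gene, had its maximum at a different time in the growth zones and in the mature zone. The division zone read 8.32, 8.29 and 8.33 at dusk, 8.00, 7.83 and 7.95 at dawn, 8.20, 8.18 and 8.22 at 6 h, 8.90, 9.20 and 8.96 at 14 h, and 8.26, 8.52 and 8.17 at 24 h. The elongation zone read 7.98 and 7.98 at dusk, 7.61, 7.62 and 7.83 at dawn, 7.86, 7.80 and 7.86 at 6 h, 8.61, 8.94 and 8.87 at 14 h, and 8.24, 8.30 and 7.98 at 24 h. In both zones the 14 h arrays were above all others. *sbe1* rose between 6 and 14 h by 0.83 ± 0.10 in the division zone (adjusted p = 1.6e-07) and by 0.97 ± 0.10 in the elongation zone (adjusted p = 9.5e-09). It then fell by 0.71 ± 0.10 and 0.64 ± 0.10 to 24 h (adjusted p = 3.6e-06 and 2.5e-05). At 24 h it was still above dawn, by 0.39 ± 0.10 in the division zone (adjusted p = 0.004, and 0.28 with an adjusted p of 0.059 without replicate 2 at 24 h) and by 0.48 ± 0.10 in the elongation zone (adjusted p = 0.00027).

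Mature tissue gave *sbe1* readings of 8.34 and 8.65 at dusk, 8.08, 8.19 and 8.09 at dawn, 7.85 and 7.95 at 6 h, 8.48, 8.35 and 8.68 at 14 h, and 9.55, 9.34 and 9.50 at 24 h. The 3 arrays at 24 h were above every other array of the gene in any zone. *sbe1* rose by 0.60 ± 0.12 between 6 and 14 h (adjusted p = 8.2e-05) and by 0.96 ± 0.10 to 24 h (adjusted p = 1.1e-08), where it was 1.34 ± 0.10 above dawn, 2.54-fold in signal (adjusted p = 4.9e-13). In the same direction, 947 probe sets had a greater difference. Over the normal night the difference was -0.38 in both the division zone (SE 0.10, adjusted p = 0.019) and the mature zone (SE 0.12, adjusted p = 0.0088). The call in the division zone was lost without any 1 of the 3 dusk arrays or without replicate 2 of dawn (adjusted p = 0.054 to 0.12). The one in the mature zone was lost without replicate 2 of dusk (-0.22, adjusted p = 0.24) and in 3 fits with other settings.

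*iso2*, the isoamylase-type subunit, declined through the prolonged night in the mature zone. It read 9.40 and 9.43 at dusk, 9.58, 9.88 and 9.72 at dawn, 9.33 and 9.18 at 6 h, 8.13, 7.76 and 8.21 at 14 h, and 7.18, 7.36 and 7.37 at 24 h. From dawn on, the arrays of each time lay below all arrays of the time before. *iso2* fell by 0.47 ± 0.12 to 6 h (adjusted p = 0.0017), by 1.22 ± 0.12 from 6 to 14 h (adjusted p = 6.4e-10) and by 0.73 ± 0.11 from 14 to 24 h (adjusted p = 2.6e-06). The difference between 24 h and dawn was -2.42 ± 0.11 (adjusted p = 4.1e-19), a 5.37-fold lower signal, and 319 probe sets had a greater difference in the same direction. At 14 h *iso2* was also below dusk (-1.38 ± 0.12, adjusted p = 7.7e-12). Over the normal night the difference was 0.31 ± 0.12 (adjusted p = 0.034), a call lost without replicate 1 or 2 of dusk or replicate 2 of dawn (adjusted p = 0.10 to 0.15). It was also lost in 3 fits with other settings.

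The growth zones held *iso2* at a lower level, and it was lower late in the dark there too. In the division zone it read 7.80, 7.83 and 7.77 at dusk, 7.51, 7.42 and 7.46 at dawn, 7.32, 7.27 and 7.16 at 6 h, 7.23, 7.09 and 7.22 at 14 h, and 6.93, 6.79 and 6.81 at 24 h. In the elongation zone it read 7.57 and 7.56 at dusk, 7.04, 7.35 and 7.10 at dawn, 6.99, 6.70 and 6.57 at 6 h, 6.83, 6.85 and 7.08 at 14 h, and 6.77, 6.74 and 6.54 at 24 h. The dusk arrays were the highest and the 24 h arrays of the division zone the lowest, each without overlap with other times of the zone. At 24 h against dawn the differences were -0.62 ± 0.11 (adjusted p = 2.6e-05) and -0.48 ± 0.11 (adjusted p = 0.00039), and at 14 h against dusk -0.62 ± 0.11 (adjusted p = 1.2e-05) and -0.64 ± 0.12 (adjusted p = 3.4e-05). Between 14 and 24 h the division zone differed by -0.34 ± 0.11 (adjusted p = 0.017), a call lost without replicate 1 or 3 at 14 h or replicate 2 or 3 at 24 h (adjusted p = 0.056 to 0.061). Called differences of -0.40 ± 0.12 over the night (adjusted p = 0.035) and -0.41 ± 0.11 to 6 h (adjusted p = 0.01) in the elongation zone were lost without replicate 1 or 2 of dusk, or 1 or 3 of dawn, for the first (adjusted p = 0.12 to 0.25), and without replicate 2 of dawn or 3 at 6 h for the second (adjusted p = 0.11 and 0.14). Among fits with other settings 4 lost the first and 1 the second.

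*zpu1*, the pullulanase-type debranching gene, had the lowest share of its variance in time among the 5 (8.88%). In the mature zone it read 8.48 and 8.38 at dusk, 8.77, 8.73 and 8.35 at dawn, 8.52 and 8.75 at 6 h, 8.76, 9.59 and 9.32 at 14 h, and 9.62, 9.73 and 9.47 at 24 h. The dawn range overlapped those of dusk and of 6 h, both 6 h arrays lay above both dusk arrays, and the 14 h group, with replicate 1 as the low one, had the widest spread of the gene (SD 0.43, n = 3). *zpu1* rose by 0.59 ± 0.15 between 6 and 14 h (adjusted p = 0.0026) and by 0.38 ± 0.14 between 14 and 24 h (adjusted p = 0.033). It was 0.99 ± 0.14 higher at 24 h than at dawn, 1.98-fold in signal (adjusted p = 1.8e-07), and 0.79 ± 0.15 higher at 14 h than at dusk (adjusted p = 4.1e-05). The step from 14 to 24 h was 0.15 without replicate 1 at 14 h (adjusted p = 0.41) and was lost without replicate 1 or 2 at 24 h (adjusted p = 0.075 and 0.12). The step from 6 to 14 h was lost without replicate 1 at 6 h (0.48, adjusted p = 0.068). Among fits with other settings 2 lost this step. The step from 14 to 24 h was lost in 3, with an adjusted p of 0.17 in limma with array weights.

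In the division zone *zpu1* ran from 7.31 to 7.89 over all 15 arrays, and none of its 6 time comparisons was called. In the elongation zone it read 7.12 and 7.08 at dusk and 7.50, 7.66 and 7.56 at 14 h, without overlap. That difference of 0.48 ± 0.15 was the 1 called of 6 there (adjusted p = 0.011), and it was lost without replicate 2 of dusk (0.46, adjusted p = 0.069). The other 9 arrays of the zone ran from 6.96 to 7.60.

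**Figure D2:**
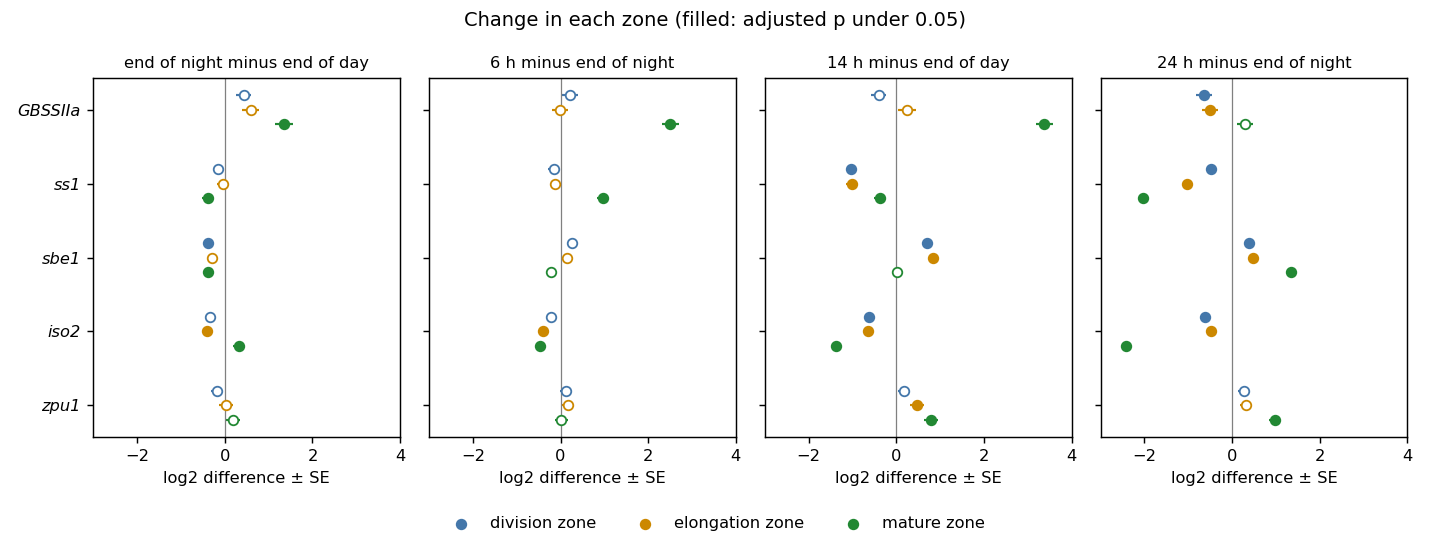
Log2 difference with its SE (horizontal axis) of each gene in each leaf zone, in 1 panel per comparison of times; filled points have an adjusted p under 0.05. Mature-zone differences reach 3.38 for *GBSSIIa* at 14 h against dusk and -2.42 for *iso2* at 24 h against dawn.

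Counted by comparison, 1 of the 5 genes changed over the normal night at the base, in the division zone (6.51% of all probe sets called), 1 changed in the elongation zone (6.3%) and 4 were called further up, in mature tissue (40.5%). In the first 6 h of prolonged night no member was called in the division zone by limma (4.06% of all probe sets), although *sbe1* had an unadjusted p under 0.05 (0.0146) and array weights or narrower fits called 1 or 2 of the 5. In that span *iso2* was called for elongation (9.01%) and *GBSSIIa*, *ss1* and *iso2* for mature tissue (39.1%). Between 6 and 14 h there were 3, 2 and 4 called genes in the division, elongation and mature zones, beside 33.1%, 35.3% and 36.3% of all probe sets. Between 14 and 24 h there were 3, 1 and 5, beside 25.9%, 22.1% and 30.6%. The 5 of the mature zone split into *GBSSIIa*, *ss1* and *iso2*, which fell, and *sbe1* and *zpu1*, which rose.

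Comparisons at a shared clock hour set samples of 1 time of day against each other. At 14 h against dusk 3, 4 and 4 of the 5 genes were called from the base upward, beside 44.6%, 45.5% and 60.8% of all probe sets. At 24 h against dawn there were 4 in each zone, beside 32.8%, 42.4% and 57.9% of all probe sets. In both growth zones the called genes at 24 h were *GBSSIIa*, *ss1* and *iso2*, all lower, and *sbe1*, higher. In the mature zone they were *ss1* and *iso2*, lower, and *sbe1* and *zpu1*, higher. Over all 6 time comparisons, which share arrays with one another, 14 of 30 tests were called for the division zone, 13 of 30 for elongation and 24 of 30 for mature tissue. The share of all probe sets called in a single comparison was 4.06% to 44.6%, 6.3% to 45.5% and 30.6% to 60.8%, so it too was higher in mature tissue. Reporter probe sets with no maize target were called in mature tissue too: 21 of 66 were higher at 14 h than at dusk, by at most 0.76, and 7 were higher and 2 lower at 24 h than at dawn; their part in the results was not tested. The changes of the 5 genes are given as fitted, without correction for those of the reporters.

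Along the leaf at a fixed time, the 2 synthases went opposite ways between the division and elongation zones. *GBSSIIa* was lower in the elongation zone at all 5 times, with the 15 division-zone arrays at 8.15 to 9.36 and the 14 elongation-zone arrays at 6.97 to 7.73. The differences were -1.63 ± 0.20, -1.47 ± 0.18, -1.70 ± 0.18, -0.98 ± 0.18 and -1.34 ± 0.18 at dusk, dawn, 6, 14 and 24 h, all called, with an adjusted p of 4.4e-05 at 14 h. *ss1* was higher in the elongation zone at the first 4 times, by 0.36 ± 0.14, 0.47 ± 0.12, 0.50 ± 0.12 and 0.39 ± 0.12, and at 24 h the difference was -0.07 (adjusted p = 0.70). Its call at 14 h was lost without replicate 2 of the division zone (0.24, adjusted p = 0.16) or replicate 3 of the elongation zone (adjusted p = 0.064). Its call at dusk was lost without replicate 1 or 3 of the division zone or either elongation-zone array (adjusted p = 0.067 to 0.19).

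The other 3 genes had fewer calls across this step. *iso2* was called lower in the elongation zone at dawn (-0.30 ± 0.11, adjusted p = 0.02) and at 6 h (-0.50 ± 0.11, adjusted p = 0.00024), the former lost without replicate 1 of the division zone or 1 or 3 of the elongation zone (adjusted p = 0.068 to 0.12). *sbe1* was called lower at dusk (-0.33 ± 0.12, adjusted p = 0.02, but 0.091 or 0.092 without either elongation-zone array) and at 6 h (-0.36 ± 0.10, adjusted p = 0.0051). *zpu1* was called lower at dusk (-0.49 ± 0.15, adjusted p = 0.01, but 0.071 without replicate 2 of the elongation zone). In all, 4, 3, 4, 2 and 1 of the 5 genes were called between these zones at the 5 times in order, beside 38.9%, 42.3%, 43%, 37% and 43.2% of all probe sets.

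Same-numbered arrays of these 2 zones deviated together from their group means at dawn, 14 and 24 h (correlations from 0.14 to 0.46). A fit of the 29 arrays of both zones with time and number as a block, added after seeing the data, called 22 of the 25 differences, and 8842 to 9805 of all probe sets at a time instead of 6497 to 7590. The same arrays without the block gave 18 of the 25. In that fit the division-zone array of dusk with no partner, replicate 3, carries no weight. Against the 14 calls given above it added 8, all toward a lower signal in the elongation zone, and lost none. *zpu1* was then called lower at the other 4 times too, by -0.29 ± 0.07 at dawn, -0.22 ± 0.07 at 6 h, -0.19 ± 0.07 at 14 h and -0.25 ± 0.07 at 24 h (adjusted p = 0.0021, 0.011, 0.026 and 0.0057). *sbe1* was added at dawn (adjusted p = 0.0044) and 14 h (0.01), and *iso2* at dusk (0.044) and 14 h (0.014).

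From the elongation to the mature zone the 5 genes were mostly higher. *iso2* was higher at all 5 times, by 1.85 ± 0.13, 2.57 ± 0.11, 2.50 ± 0.12, 1.11 ± 0.11 and 0.62 ± 0.11, so the step was 5.92-fold in signal at dawn and 1.54-fold at 24 h. *zpu1* was also higher at all 5 times, by 1.33 ± 0.17, 1.49 ± 0.14, 1.33 ± 0.15, 1.65 ± 0.14 and 2.16 ± 0.14, and no mature-zone array (8.35 to 9.73) overlapped an elongation-zone one (6.96 to 7.66). *GBSSIIa* showed no called difference at dusk (0.18 ± 0.22, adjusted p = 0.47), and was then higher by 0.95 ± 0.18 at dawn, 3.48 ± 0.20 at 6 h (11.1-fold in signal), 3.32 ± 0.18 at 14 h and 1.76 ± 0.18 at 24 h.

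The step of *ss1* turned round: it was higher in the mature zone by 0.77 ± 0.15, 0.42 ± 0.12, 1.51 ± 0.14 and 1.41 ± 0.12 at the first 4 times and lower at 24 h (-0.59 ± 0.12, adjusted p = 7.5e-05). Centring each array on its median, which raises the median step of all probe sets from 0.18 to 0.43 at 24 h, left *ss1* lower by a smaller amount (-0.35, adjusted p = 0.009). *sbe1* was higher at dusk (0.52 ± 0.13), at dawn (0.43 ± 0.10) and at 24 h (1.29 ± 0.10), and at 6 h the difference was 0.06 (adjusted p = 0.62). At 14 h it was called lower (-0.30 ± 0.10, adjusted p = 0.0088), with overlapping ranges. That call was lost after centring (-0.08, adjusted p = 0.49) and without replicate 2 of the elongation zone (-0.23, adjusted p = 0.062) or of the mature zone (-0.23, adjusted p = 0.068).

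In all, 4, 5, 4, 5 and 5 of the 5 genes were called between the elongation and mature zones, beside 72.1%, 76.2%, 78.2%, 80.6% and 80.2% of all probe sets, so that most of the array differs across this step. Reporters with no maize target also gave calls toward a higher mature-zone signal, 22, 25, 35, 43 and 44 of 66 in order of time, by at most 0.91, and their part was not tested. The steps of the 5 genes are given as fitted, without correction for those of the reporters.

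**Figure D3:**
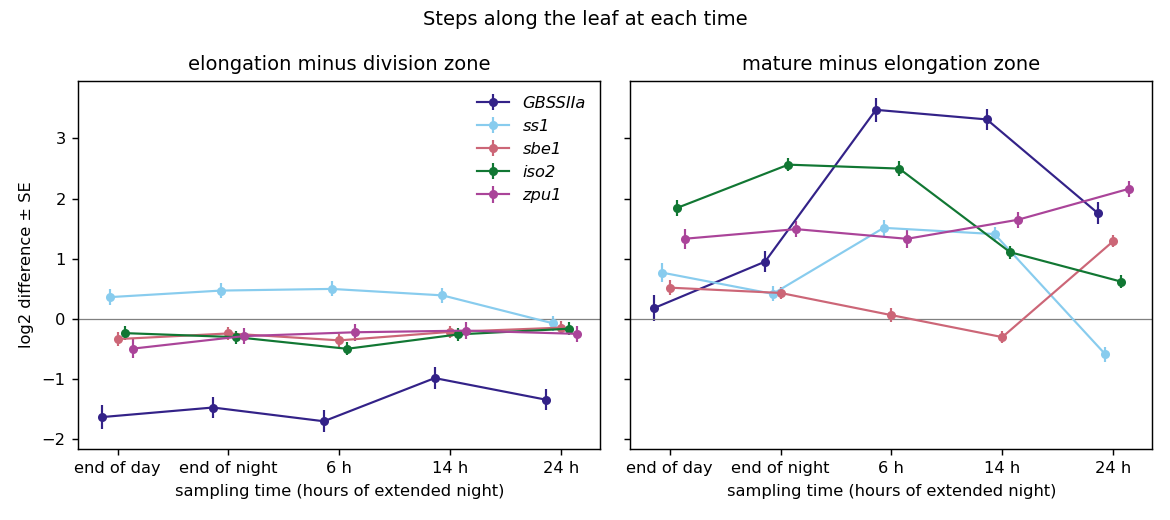
Log2 difference with its SE (vertical axis) between neighbouring leaf zones at each sampling time (horizontal axis), with 1 line per gene and 1 panel for each step along the leaf. *GBSSIIa* lies between -1.70 and -0.98 in the first step, and in the second *ss1* goes from 1.41 at 14 h to -0.59 at 24 h.

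Whether a gene's response differed between zones was tested as the difference of 2 changes. For *GBSSIIa* the change of the mature zone exceeded that of the division zone by 0.93 ± 0.27 over the night, 2.30 ± 0.27 from then to 6 h, 3.78 ± 0.27 at 14 h against dusk and 0.94 ± 0.25 at 24 h against dawn (adjusted p = 0.0086, 1.2e-07, 5.1e-13 and 0.0025). The value at 14 h was exceeded in the same direction by 19 of 17555 probe sets. The value at 24 h was 0.56 without replicate 1 of the mature zone at dawn (adjusted p = 0.0092). The one over the night was lost without replicate 1 of the mature zone at dusk (0.69, adjusted p = 0.10).

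Against the elongation zone the 4 differences of *GBSSIIa* were 0.77 ± 0.28, 2.52 ± 0.27, 3.14 ± 0.28 and 0.81 ± 0.25. The first of these (adjusted p = 0.045) was kept without replicate 2 of the mature zone at dusk, replicate 3 of the elongation zone at dawn or replicate 1 of the mature zone at dawn, and lost without any 1 of the other arrays concerned (adjusted p = 0.061 to 0.27). The last was 0.43 without replicate 1 of the mature zone at dawn (adjusted p = 0.046).

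*ss1* changed more upward in the mature zone to 6 h, by 1.13 ± 0.19 against the division zone and 1.10 ± 0.19 against the elongation zone, and more downward to 24 h, by -1.55 ± 0.17 and -1.01 ± 0.17. *iso2* fell further in the mature zone to 24 h, with differences of -1.80 ± 0.15 (adjusted p = 8.6e-12) and -1.94 ± 0.15 (adjusted p = 1.8e-12). Over the normal night its change was more positive there, by 0.65 ± 0.16 and 0.72 ± 0.17. *sbe1* had the reverse order at the 2 clock hours: its change at 14 h was less in the mature zone (-0.70 ± 0.15 and -0.82 ± 0.16), and its change at 24 h was greater (0.96 ± 0.15 and 0.86 ± 0.15). *zpu1* rose more in the mature zone to 24 h, by 0.71 ± 0.19 and 0.67 ± 0.19 (adjusted p = 0.0028 and 0.0046).

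Of the 5 genes, 2, 3, 5 and 5 differed between the mature and division zones in these 4 changes (28.9%, 26.4%, 52.2% and 49.5% of all probe sets), and 2, 2, 4 and 5 between the mature and elongation zones (24.7%, 23.5%, 44.5% and 48.7%). Reporters with no maize target were called here too. Against the division zone 0, 7, 20 and 10 of 66 were called, all higher, by at most 0.86. Against the elongation zone 0, 3, 8 and 6 were called, 1 of them lower, by at most 0.73. Their part was not tested, and the values of the 5 genes are given without correction for it. Between the elongation and division zones none of the 20 tests was called by limma, beside 0.587%, 0.148%, 6.56% and 3.61% of all probe sets. Of these 20, 2 had an unadjusted p under 0.05: *ss1* at 24 h (-0.55 ± 0.17, adjusted p = 0.077) and *GBSSIIa* at 14 h (0.65 ± 0.27, adjusted p = 0.17). Fits with array weights, on the groups compared alone and on the zones compared alone called 2 each, and so did the fit with time and number as a block (*GBSSIIa* at 14 h, 0.68 ± 0.16 with adjusted p = 0.0064, and *ss1* at 24 h, -0.55 ± 0.13 with adjusted p = 0.0089).

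The position of the 15 groups in order of level was as follows. *GBSSIIa* was highest in the mature zone at 6 and 14 h (11.08 and 10.60) and then in the division zone at 6 h (9.31) and at dawn (9.10), with the elongation zone at dusk lowest (7.04). For *ss1* the first 4 places were the mature zone at 6 h, dusk, 14 h and dawn (11.07, 10.50, 10.13 and 10.10) and the last was the mature zone at 24 h (8.08). *iso2* had its 4 highest means in the mature zone (9.73, 9.41, 9.25 and 8.03), and *zpu1* its 5 highest (9.61 to 8.43). *sbe1* was highest in the mature zone at 24 h (9.46), then in the division and elongation zones at 14 h (9.02 and 8.81). Of the 14 pairs of neighbours in each order, the arrays overlapped in 8 for *GBSSIIa*, 7 for *ss1*, 11 for *sbe1*, 8 for *iso2* and 12 for *zpu1*, so that many neighbouring places cannot be separated.

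Set against each other over the 15 group means, *ss1* and *iso2* had the highest Pearson correlation of the 10 pairs, 0.77, and 0.75 after each zone was centred on its own mean. With zones centred, *sbe1* and *zpu1* had 0.78, against 0.56 without centring, and *ss1* and *sbe1* had -0.86 against -0.58. Centring turned the sign of 4 of the 10 pairs: *iso2* and *zpu1* had 0.52 without it and -0.90 with it, and *ss1* and *zpu1* 0.17 and -0.84. *GBSSIIa* had values from -0.35 to 0.29 with the other 4 after centring and from 0.01 to 0.57 before, those with *sbe1* and *iso2* turning negative. All these points come from the same arrays and samples, and the values are descriptions with n = 15.

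Among 959 named genes above the dim level in at least 1 group, the 15 means most like those of *GBSSIIa* belonged to *gst6* (0.84), LOC100101528 (0.81) and *serk3* (0.79), and the least like to *gst10* (-0.89) and *GAPC* (-0.86). For *ss1* they were *CYTMDH* (0.88), *pep* (LOC542393, 0.87) and *f3h* (0.84), with *MNB1b* at -0.89 and *tif5A* at -0.80. For *sbe1* they were *ohp1* (0.84), *SPP2* (0.83) and LOC541824 (0.82), with *BM1* at -0.85 and *ivr2* at -0.80. *iso2* was nearest to *PER2* (0.95), *pDCT2* (0.95) and *hp2* (0.94) and farthest from *pdi11* (-0.95) and *GIF2* (-0.94). *zpu1* was nearest to *gst23* (0.97), *hk2* (0.96) and *Snf-4 like* (0.95) and farthest from *CRH* and *GP* (both -0.99). These values include the zone steps, so they do not describe the time courses alone. With each zone centred on its own mean, the most alike ran from 0.66 (*Snf-4 like*) to 0.94 (*hk2*). The least alike then ran from -0.71 (*tif5A*) to -0.94 (*GP*). Over the 42 arrays *tif5A* had -0.52 with *ss1*.

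A starch synthesis list chosen by name matched 11 other genes, with *phi1*, whose place in that pathway was not tested, among them. Of these, the seed-type branching enzyme *ae1*, the ADP-glucose transporter *bt1*, the soluble synthase *du1* and *sh2*, the endosperm large subunit of ADP-glucose pyrophosphorylase, were below the dim level in all 15 groups. The endosperm granule-bound synthase *wx1* was above it in 3 groups, the debranching gene *iso3* in 7, the gene *agp2* with identifier LOC542072 in 10 and *bt2*, the endosperm small subunit, in 13. *agpsl1*, the leaf-type small subunit, *phi1* and the *agp2* gene with identifier LOC542737 were above it in all 15. The 1 breakdown gene, *amy2*, was below it in all groups.

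Of the 11, 1 was higher and 4 lower in the mature zone at 24 h than at dawn, beside 31.6% higher and 26.3% lower of all probe sets, with a median of -0.13 against 0.04. At 14 h against dusk, 1 was higher and 5 lower, beside 34% and 26.8%, with a median of -0.22 against 0.11; the higher one, *bt1*, and 1 of the lower ones, *sh2*, were below the dim level in both groups. *iso3*, another isoamylase-type gene, known in Arabidopsis from starch breakdown, went from a mean of 8.13 at dawn to 5.95 at 24 h. The latter is below the dim level, so the signal was at least 3.83-fold lower (adjusted p = 4.1e-15), taken against that level. *phi1*, a phosphohexose isomerase gene, differed by -1.74 ± 0.11 at 24 h (adjusted p = 2.8e-15). *bt2* went from 7.02 to 5.85, also below the dim level, and was at least 1.78-fold lower (adjusted p = 2e-08). *agpsl1* differed by -0.82 ± 0.09 (adjusted p = 1.4e-09). *agp2* (LOC542737) was the gene that was higher, by 0.39 ± 0.10 (adjusted p = 0.0012), after a normal night over which it had fallen by 1.67 ± 0.11 (adjusted p = 1.1e-13), the span in which *GBSSIIa* rose by 1.36. At 6 h against dawn 2 of the 11 were higher and 3 lower, beside 19.5% and 19.7% of all probe sets. *wx1* was among the former (adjusted p = 1.9e-04), at 6.60 against a dawn mean of 6.09, below the dim level, and so at least 1.33-fold higher.

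In the growth zones at 24 h against dawn, 1 of the 11 was higher and 2 lower in each, beside 17.9% and 15% of all probe sets in the division zone and 21.8% and 20.6% in the elongation zone. One of the lower genes of the elongation zone, *sh2*, was below the dim level in both groups. From the elongation to the mature zone, 4 to 6 of the 11 were higher and 2 or 3 lower at each time, beside 36.1% to 46.5% and 33.7% to 37.6% of all probe sets. Up to 2 of the higher and 1 of the lower genes at a time were below the dim level in both zones. *agpsl1* was higher in the mature zone by 2.82 to 3.41 and *phi1* by 2.15 to 3.91, while the *agp2* gene LOC542072, below the dim level in all 5 mature groups, was at least 12.04-fold lower there at 24 h and at least 14.1-fold lower at 14 h. *iso3* was at least 3.83-fold higher in the mature zone at dawn, where its elongation-zone mean of 6.04 was below the dim level. At 24 h it was at least 1.43-fold lower (adjusted p = 1.1e-05), with the mature mean of 5.95 below that level and the elongation mean at 6.70.

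**Figure D4:**
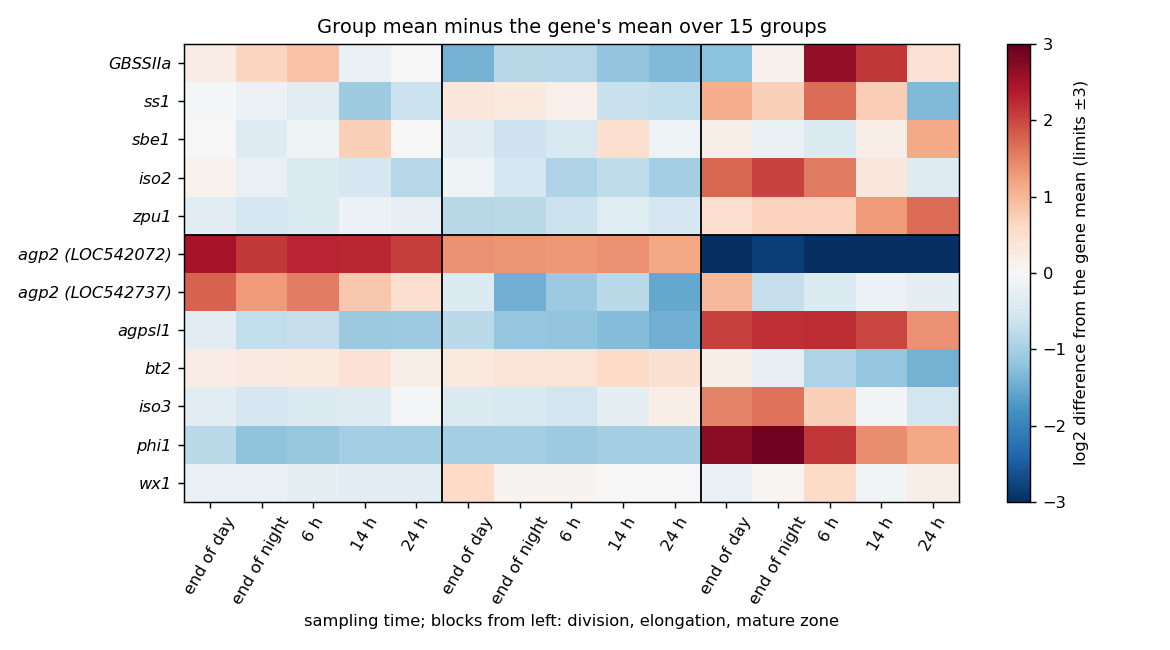
Mean log2 signal of each group minus the gene's mean over the 15 groups, for the 5 genes (above the line) and other genes of the starch synthesis list (below it). Those below the line had at least 1 group mean above the dim level: both *agp2* genes, *agpsl1*, *bt2*, *iso3*, *phi1* and *wx1*. Colours run from -3 to 3, beyond which values share the end colour. Columns are the 5 sampling times within the division, elongation and mature zones; *iso2* and *iso3* go from their highest to lower values within the mature block, *iso3* to below the dim level at 24 h.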

How the data were processed

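RNA was measured on an Affymetrix maize array. The authors deposited log2 signal intensities made with RMA (a method that corrects background, normalizes arrays and summarises probes), per the submitters' processing notes, with version and settings not given in the sources used here; they lay between 2.56 and 14.41 and entered the fit unchanged. Of 45 labelled arrays 42 were used, because 3 columns are empty: the dusk replicate 3 of elongation and of mature tissue, and the 6 h replicate 2 of mature tissue. The table holds 17734 probe sets; 113 control and 66 reporter probe sets were left out of the tests. Of the 17555 tested, 1452 carry 1 gene name, 1 carries several and 16102 carry none. Names were updated through RefSeq's maize gene list, from which no position was taken and which held 1060 of 1108 genes. No promoter or protein sequence was used here.

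A mean per group was fitted (limma 3.58.1 in R 4.3.3, functions lmFit and eBayes; 27 residual and 4.01 prior degrees of freedom). The 40 comparisons were 18 between times, 10 between zones and 12 differences of changes. Benjamini-Hochberg adjustment ran over all probe sets within each comparison, and a call is an adjusted p under 0.05. Fold changes in signal are powers of 2 of the log2 differences. The typical (median) SE of a difference was 0.117 between groups of 3 arrays, 0.13 where 1 group had 2 and 0.143 where both had 2. Data were also simulated with equal group means, independent noise of 1 spread per probe set in all zones, and few changed probe sets. With the array numbers of the mature zone at 24 h against dawn, 64.2% of differences of 0.5, 98.5% of 1 and 100% of 2 were found, with 6 false calls among 181. For 6 h against dawn the shares were 38.8%, 94% and 100%, with 11 false calls among 166. The real mature arrays were noisier than the others, and 57.9% of all probe sets were called at 24 h against dawn. These shares therefore do not give the recovery or false calls in the real mature zone.

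The members, marker list and pathway list were chosen with earlier results of these data known. Named genes were the 5 members, for each the 3 genes most and the 2 least like it over the 15 group means, and genes of the pathway list; where a gene had several probe sets, the brightest was used. A second probe set of *sh2* was called in the opposite direction between the elongation and mature zones. Alternatives were centring of arrays, array weights, narrower fits, a trended robust prior, replicate blocks, leaving out dim probe sets and leaving out each array. Same-numbered arrays were checked for shared deviations from their group means. Every pair's correlation was over 0.1 between the division and elongation zones at dawn (0.21 to 0.33), 14 h (0.14 to 0.46) and 24 h (0.22 to 0.42), and between 14 and 24 h in the division zone (0.12 to 0.36). These numbers were taken as pairs from the data, since the labels state no pairing, and fits with that block were added.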

Additional observations from a re-analysis of the deposited data

Results flagged for a closer look

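The test of the difference between 2 zones' changes singled out 28 results of the 5 genes, all with the mature zone as 1 side. In those comparisons 23.5% to 52.2% of all probe sets were called. Chosen as they are by an adjusted p under 0.05 (limma), the 28 results are given as values. For *GBSSIIa*, the change of the mature zone exceeded that of the division zone by 0.93 (dawn against dusk), 2.30 (6 h against dawn), 3.78 (14 h against dusk) and 0.94 (24 h against dawn). It exceeded that of the elongation zone by 0.77, 2.52, 3.14 and 0.81. For *ss1* the differences to the division zone were 1.13 at 6 h, 0.67 at 14 h and -1.55 at 24 h, and those to the elongation zone 1.10, 0.64 and -1.01.

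For *sbe1* the mature-minus-division differences were -0.48 at 6 h, -0.70 at 14 h and 0.96 at 24 h, and the mature-minus-elongation ones -0.82 at 14 h and 0.86 at 24 h. For *iso2* they were 0.65 over the night, -0.76 at 14 h and -1.80 at 24 h against the division zone, and 0.72, -0.74 and -1.94 against the elongation zone. For *zpu1* they were 0.61 at 14 h and 0.71 at 24 h against the division zone and 0.67 at 24 h against the elongation zone. Reporter probe sets differed by at most 0.86 and 0.73 in such tests against the 2 zones in that order, and their part was not tested. The value of *sbe1* at 6 h was lost without replicate 2 of the division zone at dawn or replicate 1 of the mature zone at 6 h (adjusted p = 0.053 and 0.076), and that of *zpu1* at 14 h without replicate 2 of the mature zone at dusk or at 14 h (adjusted p = 0.057 and 0.063).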

How the results depend on the processing

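Of 200 differences of the 5 genes, 116 were called and 89 of these kept their call in every alternative run. No called difference changed sign. In the same comparisons the share of all probe sets called ran from 0.148% to 80.6%. Of the 43 called differences of at least 1 log2 unit, 42 kept the call, the exception being the rise of *GBSSIIa* over the night in the mature zone (adjusted p = 0.084 in a fit of the 2 groups alone). That fit also lost the other 3 mature-zone calls over the night (*ss1*, *sbe1* and *iso2*, adjusted p = 0.12, 0.15 and 0.20). Of the 84 differences not called, 32 were called in at least 1 alternative. Array weights called 20 of 30 time comparisons in the elongation zone instead of 13, and 22 of 25 differences between the elongation and division zones instead of 14. Changes that differ between those zones numbered 2 instead of 0 with array weights, with the groups compared alone and with the zones compared alone; the cause was not tested. Leaving out 1 array gave 12 to 14 called time comparisons in the division zone, 11 to 14 in the elongation zone and 20 to 26 in the mature zone. It gave 11 to 15 between the elongation and division zones, 22 to 23 between the mature and elongation zones, and for changes 14 to 15 (mature against division), 12 to 14 (mature against elongation) and 0 to 1 (elongation against division).

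Replicate numbers are shared between groups. Same-numbered arrays deviated together between the division and elongation zones at dawn, 14 and 24 h and between 14 and 24 h in the division zone; in no other comparison with 3 pairs was every correlation over 0.1. Pairing the growth zones by a time and number replicate block called 22 of 25 differences between them instead of 14, and 2 changes that differ between them instead of 0: that of *GBSSIIa* at 14 h against dusk (0.68, adjusted p = 0.0064) and that of *ss1* at 24 h against dawn (-0.55, adjusted p = 0.0089). The arrays of these zones fitted alone without the block also called more than 14 of the 25, and also 2 changes. Not all of the gain therefore came with the pairing. Pairing 14 and 24 h in the division zone changed no call of the 5 genes. With the number as a fixed replicate block in all arrays, 2 of the 116 calls were lost: the difference in overnight change of *GBSSIIa* between mature and elongating tissue (adjusted p = 0.052), and *iso2* over the night in the elongation zone (adjusted p = 0.051). A random replicate block lost none and added 3, at a consensus correlation of 0.0869.

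Counts over all probe sets moved as well. In the mature zone the fit of the groups alone called 2520 instead of 7113 over the night, 2180 instead of 6869 to 6 h, 2506 instead of 6365 from 6 to 14 h and 1902 instead of 5364 from there to 24 h, and that of the zone alone 4030, 3805, 3719 and 2077. Array weights gave 3170 for the last of these. In the division zone array weights, the groups alone and the zone alone gave 4792, 2825 and 2571 instead of 1142 over the night, and 5257, 1859 and 1398 instead of 712 to 6 h; array weights and the zone alone gave 9009 and 8693 instead of 5762 at 24 h against dawn. Array weights gave 8884 instead of 5819 from 6 to 14 h there, and in the elongation zone 2563 instead of 1106 over the night, 3337 instead of 1582 to 6 h and 6741 instead of 3877 from 14 to 24 h. For changes that differ between the elongation and division zones these fits, without pairing, gave 251 to 620 instead of 103 over the night, 56 and 233 instead of 26 to 6 h, 2722 to 3736 instead of 1151 at 14 h and 1494 to 3647 instead of 634 at 24 h; with pairing there were 768, 172, 3866 and 3190. The groups alone gave 2392 instead of 4343 and 2357 instead of 4124 for those between the mature and elongation zones over the night and to 6 h.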
